A study of Mus musculus with 16 samples.

Results

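The livers of 4 mice fed a high-fat diet (HFD) and given nicotinamide mononucleotide (NMN) were compared with the livers of 4 mice fed regular chow. The NMN was injected into the peritoneum for 7 days. Every mouse was female and C57BL/6J, and the labels give no mutant allele or transgene for any group. The sources used here give no age, NMN dose, length of the diet or injection of the chow and HFD mice. The 8 arrays compared were chosen by sample title out of 16 arrays from 12 mice. The chow livers were read on chip A and the NMN livers on chip B, so no chip held both groups. The other 8 arrays held the livers of 4 HFD mice without NMN, each measured once on each chip. For every probe, the mean difference between both arrays of these HFD mice was taken as the chip difference and removed. The 2 groups differ in diet and in injection together, and no chow mouse received NMN, so a difference between them cannot be told apart into a part of the diet and a part of NMN without the HFD mice. The difference of HFD minus chow on chip A and that of NMN minus HFD on chip B are therefore given beside the results, as the diet part and the NMN part. They share the chow, HFD and NMN arrays with the comparison and sum to it.

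NMN is the direct precursor of nicotinamide adenine dinucleotide (NAD), the coenzyme that carries electrons in metabolism and that sirtuin deacetylases consume. In cells NMN is made by the enzyme NAMPT, and the liver also builds NAD from tryptophan. The liver makes cholesterol through a chain of enzymes whose genes the transcription factor SREBP2 turns on when sterols are scarce. It stores surplus fat in droplets coated by perilipins, and it secretes most lipoprotein, complement and clotting proteins of the blood.

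Single-colour Illumina bead arrays were used, with biotin-labelled cRNA of total liver RNA, 1 array per liver and chip. Levels are log2 intensities after background correction and normalisation, with the NMN arrays corrected for the chip, and the levels of different probes cannot be set against each other. Differences are in log2 units with their SE from limma (n = 4 mice per group), and adjusted p-values are limma's over all probes. Between 9473 and 10569 probes were detected per array, and the number of mice limits the precision. The mean signal was 6.13 to 6.85 times the background on the chow arrays and 5.57 to 5.81 times on the NMN arrays. On the HFD arrays it was 5.71 to 6.52 times on chip A and 5.18 to 6.63 times on chip B. Of the hepatocyte markers with a probe, Alb, Apoa1, Ttr, Serpina1a, Ahsg, Cps1, Asgr1, Asgr2, Hnf4a, Cyp2e1 and F2 were detected on all 16 arrays, while Fgb and Tat were detected on 0. No marker of skeletal muscle or bile duct cells was detected on 4 or more arrays. In the HFD mice the chip difference lay between -0.10 and 0.12 for the middle of the probes (10th to 90th percentile), and it was over 0.5 in size for 0.171% of them.

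Of 10550 probes tested, 1157 differed between NMN and chow livers, with 561 (5.32%) higher and 596 (5.65%) lower in NMN livers (limma with mouse as a random block, adjusted p under 0.05). When the arrays of 1 HFD mouse were treated as independent, only 48 probes passed as higher and 90 as lower, all of them among those above. On 1 probe per gene, 371 of 6559 genes (5.66%) were higher and 369 (5.63%) lower, and the median over all genes was -0.01. The median difference was 0.65 among the genes called higher and -0.55 among those called lower, with 76 genes above 1 and 48 below -1. The same called genes had a median of 0.42 and -0.38 for HFD minus chow and of 0.17 and -0.16 for NMN minus HFD. Within the chips, 767 probes (7.27%) passed for HFD against chow and 1 (0.00948%), a probe with no gene name, for NMN against HFD. That probe was 1.78 higher in NMN than in chow livers. At an unadjusted p under 0.05, NMN against HFD held 946 of the 10550 probes. At the same threshold HFD against chow held 2471 and NMN against chow 2763. Leaving out NMN mouse 3 lowered the counts to 245 higher and 303 lower, leaving out chow mouse 4 to 279 and 374, and leaving out NMN mouse 1 to 326 and 375.

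**Figure D1:**
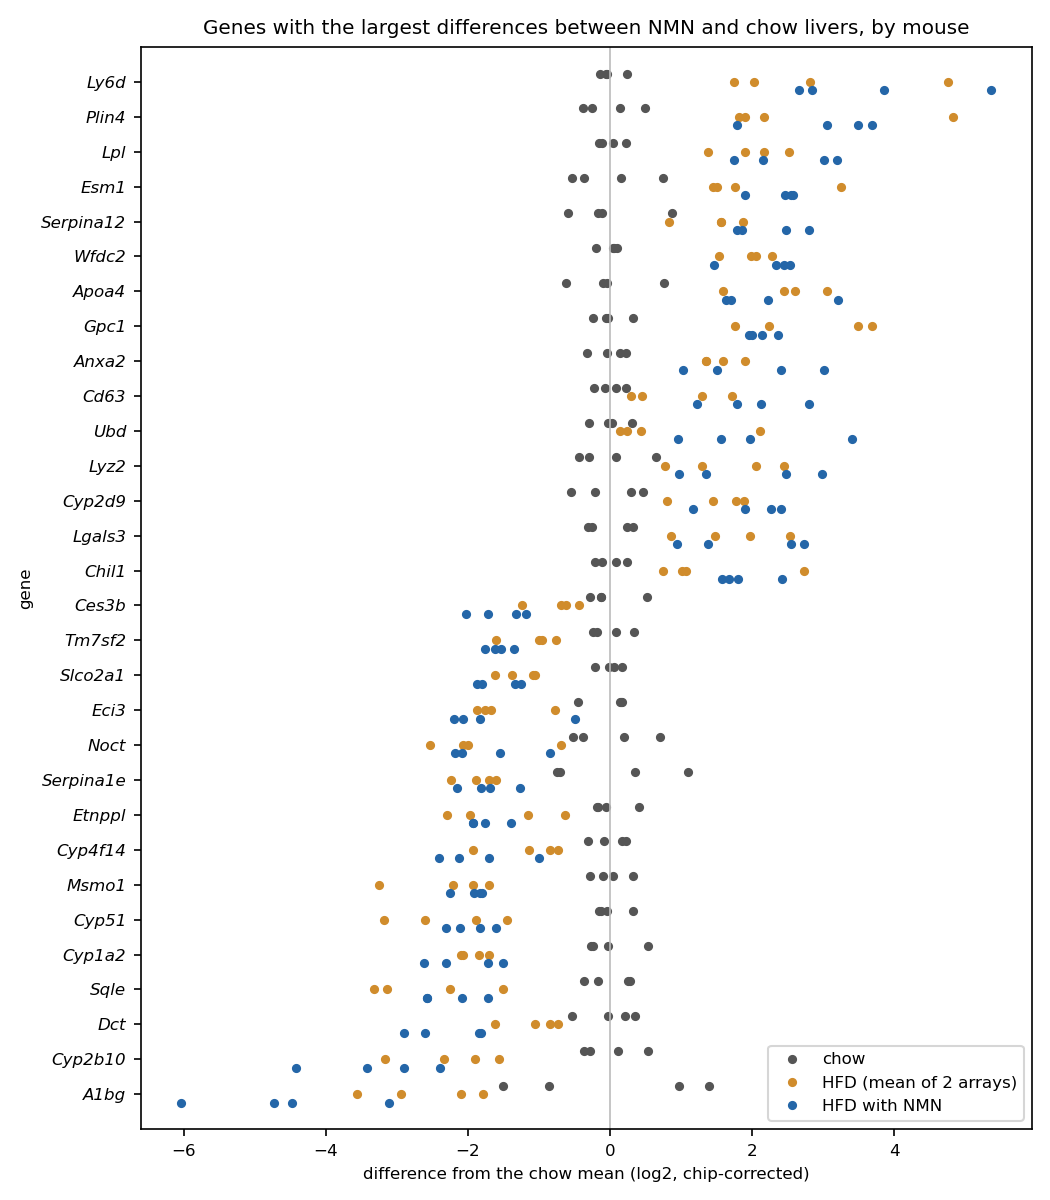
Log2 level of the 30 genes with the largest called differences (15 higher, 15 lower), as the difference from the mean of the chow mice, with 1 point per mouse in chow (grey), HFD (orange, mean of both arrays) and NMN (blue) livers. No NMN point overlaps the chow points for these genes, as the choice of genes requires, while the HFD mice reach below the NMN mice for Cyp51 and lie between both groups for Dct.

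The cholesterol pathway was the list with the highest share of lower genes in NMN livers. Of 14 measured enzymes, 9 fell and 0 rose, against 5.63% of all genes that fell, and the median difference was -1.08 against -0.01 over all genes. In all 14 the highest NMN mouse lay below the lowest chow mouse, a separation that 10.8% of all genes showed. The list mean per mouse, relative to chow, was 0.25, -0.13, 0.0028 and -0.12 in the chow livers and -1.40, -1.35, -0.90 and -1.02 in the NMN livers. In the HFD mice it was -2.15, -0.79, -0.98 and -1.47. Sqle, the squalene epoxidase that opens the sterol branch, measured 7.93, 7.48, 7.90 and 7.28 in chow mice 1 to 4 and 5.07, 5.08, 5.93 and 5.57 in NMN mice 1 to 4. Every NMN liver was more than 1 log2 unit below every chow liver, and the difference was -2.23 (SE 0.35, adjusted p = 0.00131). Cyp51, the lanosterol demethylase, stood at 9.33, 8.85, 8.88 and 8.97 in the chow livers against 6.89, 6.70, 7.40 and 7.18 in the NMN livers. The groups lay apart by more than 1 log2 unit here too, with a difference of -1.96 (SE 0.30, adjusted p = 0.00125). Msmo1, the next oxidase in the chain, fell by 1.95 on the log2 scale (SE 0.27, adjusted p = 6.86e-04), Tm7sf2, a sterol reductase, by 1.56 and Hsd17b7, a sterol ketoreductase, by 1.16. Hmgcs1, which makes the HMG-CoA that enters the pathway, differed by -1.02, Mvd by -1.27, Nsdhl by -1.14 and Ebp by -0.47. The enzymes that did not pass were Fdps (-0.92), Dhcr7 (-0.78), Lss (-0.75), Pmvk (-0.65) and Sc5d (-0.49).

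All 14 enzymes also averaged lower in HFD mice without NMN than in chow mice. The median of the list was -1.19 for HFD minus chow and 0.28 for NMN minus HFD. Sqle gave -2.55 and 0.32 for these, and Msmo1 -2.27 and 0.32. For Tm7sf2, Ebp, Hsd17b7 and Hmgcs1 the NMN part was negative too, at -0.48, -0.14, -0.12 and -0.08, and it did not pass for Tm7sf2 (adjusted p = 0.384). With no block for the mouse, 3 of the 14 enzymes passed, and with 1 mouse left out between 7 and 11 of the 14 did. The Nsdhl call was lost without chow mice 1 and 4 and NMN mice 1 and 2 (adjusted p up to 0.0636), and that of Ebp without chow mice 1 and 4, NMN mice 1, 2 and 3 and HFD mouse 4 (up to 0.0756).

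Regulators of the pathway moved in both directions. Srebf2, which encodes SREBP2, read 6.19, 6.16, 6.29 and 6.08 in the chow livers against 5.47, 5.73, 5.69 and 5.61 in the NMN livers. It was lower in each NMN liver than in any chow liver, by a modest amount (-0.55 (SE 0.11, adjusted p = 0.00557)). Scap, the escort protein that carries SREBP2 out of the endoplasmic reticulum, fell by 0.62. Insig2, which retains that complex in the endoplasmic reticulum, read 9.25, 10.43, 10.09 and 9.91 in the chow livers against 11.12, 10.95, 11.325 and 10.96 in the NMN livers. It was higher in every NMN liver (1.17 (SE 0.19, adjusted p = 0.00171)), with chow mouse 1 the lowest of the 8. Abcg5, part of the transporter that exports sterols into bile, rose by 1.05 (adjusted p = 0.0158), and its partner Abcg8 was at 0.65 without passing. Insig1, the other retention protein and a target of SREBP2, was at -0.68 and did not pass. Lcat, which esterifies cholesterol in plasma, was lower by -0.50 on the log2 scale, a call lost without chow mice 1 and 4 and NMN mice 1 and 3 (adjusted p up to 0.0987). In all, 2 of 11 genes of sterol control, uptake and efflux rose and 3 fell, where 5.66% of all genes rose and 5.63% fell.

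The promoters of Cyp51, Msmo1 and Hmgcs1 are shown because these enzymes fell together and SREBP2 is known to act at sterol genes with the factor NF-Y, which binds the CCAAT box. A search on both strands for ATTGG, the CCAAT box read in reverse, found it in 12 of the 12 measured cholesterol enzymes with a promoter in the RefSeq table, against 37.4% of all 32851 promoter windows and 41.1% of all genes. TCACNCCAC, a form of the sterol regulatory element, was found in 1 of the 12, Hmgcs1, against 1.24% of all windows. Each window runs from 250 bases before to 50 after the start of the gene (RefSeq, GRCm38.p6), and a match describes the letters and not binding. Capitals mark ATTGG or its reverse complement in the first 2 sequences and the sterol element in the third. The windows lie at chr5:4104648-4104947, minus strand, at chr8:64733529-64733828, minus strand and at chr13:119690101-119690400, plus strand.
Cyp51: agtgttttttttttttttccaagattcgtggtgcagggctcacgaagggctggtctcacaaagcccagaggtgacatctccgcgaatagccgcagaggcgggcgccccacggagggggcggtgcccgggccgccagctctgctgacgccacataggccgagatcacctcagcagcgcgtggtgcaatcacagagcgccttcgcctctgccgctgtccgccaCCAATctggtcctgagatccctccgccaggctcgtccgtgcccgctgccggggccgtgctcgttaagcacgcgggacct
Msmo1: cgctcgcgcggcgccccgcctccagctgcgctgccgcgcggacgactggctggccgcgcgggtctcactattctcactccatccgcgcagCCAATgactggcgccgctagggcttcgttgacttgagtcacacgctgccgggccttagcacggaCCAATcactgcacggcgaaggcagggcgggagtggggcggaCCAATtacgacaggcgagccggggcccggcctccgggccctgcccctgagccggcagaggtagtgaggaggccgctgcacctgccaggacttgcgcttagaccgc
Hmgcs1: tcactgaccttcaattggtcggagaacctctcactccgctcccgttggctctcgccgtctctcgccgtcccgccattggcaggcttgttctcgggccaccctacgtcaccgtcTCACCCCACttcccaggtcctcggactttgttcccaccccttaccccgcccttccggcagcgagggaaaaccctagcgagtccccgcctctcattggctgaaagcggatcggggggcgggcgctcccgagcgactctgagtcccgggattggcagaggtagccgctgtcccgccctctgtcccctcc

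Genes of fat storage that passed the test were higher in NMN than in chow livers. Of 19 measured genes in the list of lipid droplets and storage, 7 rose, 12 did not pass and 0 fell. Over all genes 5.66% rose, and the median of the list was 0.58. Lpl, the lipase that frees fatty acids from lipoproteins and is little expressed in healthy adult liver, read 7.61, 7.46, 7.79 and 7.42 in chow mice 1 to 4 and 10.58, 9.72, 10.77 and 9.32 in NMN mice 1 to 4. The groups were at least 1 log2 unit apart, and the difference was 2.53 (SE 0.30, adjusted p = 2.70e-04). Plin4, a perilipin coat protein, read 4.72, 5.10, 4.59 and 5.45 in the chow livers against 8.65, 8.02, 8.46 and 6.75 in the NMN livers. NMN mouse 4 was the lowest of its group and still above every chow liver (3.002 (SE 0.59, adjusted p = 0.00512)), and Plin4 was detected in 2 of 4 chow and 4 of 4 NMN livers. Apoa4, an apolipoprotein that rises with liver fat, differed by 2.19 (SE 0.38, adjusted p = 0.00253), with NMN levels of 10.12, 9.60, 11.10 and 9.53 and chow levels of 7.28, 8.66, 7.85 and 7.79. Pparg, the regulator of fat storage, rose by 0.84 (adjusted p = 0.00801), Plin3 by 0.63 and Hilpda, a droplet protein induced by low oxygen, by 0.57. Mogat1, which starts a route to triglyceride, was not detected in any chow liver and was at least 1.35-fold higher in NMN livers (adjusted p = 0.00369). Cidec, which fuses droplets, was at 1.34 and Plin2 at 0.58, and neither passed.

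The called genes also averaged higher in HFD mice without NMN than in chow mice, and Lpl levels in these HFD mice were 9.74, 10.09, 9.48 and 8.96. Plin3 gave only 0.27 for HFD minus chow and 0.36 for NMN minus HFD. The list median was 0.60 for HFD minus chow and -0.14 for NMN minus HFD. Lpl and Plin4 gave 0.53 and 0.32 for NMN minus HFD (adjusted p = 0.594 and 0.951), and Apoa4 gave -0.23. With no block for the mouse 1 of the 7 genes, Lpl, passed, and with any 1 mouse left out 7 to 9 passed.

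Other lipid lists held fewer calls, where over all genes 5.66% rose and 5.63% fell. Of 17 genes of fatty acid and triglyceride synthesis, 2 rose, Elovl5, an elongase (0.72), and Scd1, the stearoyl-CoA desaturase (0.66). The Scd1 call was lost without chow mouse 4 and NMN mouse 3 (adjusted p up to 0.101). Among 21 genes of fatty acid oxidation and PPAR alpha targets, 2 rose and 1 fell, with a median of 0.059. Fgf21, a hormone the liver secretes in fasting and overfeeding, read 5.95, 5.86, 4.99 and 5.40 in the chow livers against 8.07, 6.66, 8.01 and 6.56 in the NMN livers. NMN mice 1 and 3 were more than 1 log2 unit above NMN mice 2 and 4, and the difference from chow was 1.77 (SE 0.37, adjusted p = 0.00608). HFD minus chow was 1.66 for it and NMN minus HFD 0.12. Crat, the carnitine acetyltransferase, was higher by 0.44 and Angptl4, an inhibitor of Lpl, lower by 0.72 on the log2 scale. Both calls were lost when single mice were left out, for Crat without chow mice 1, 2 and 4, NMN mice 1 and 2 and HFD mouse 3 (adjusted p up to 0.0827) and for Angptl4 without chow mice 1, 2 and 4, NMN mice 2, 3 and 4 and HFD mice 2 and 3 (up to 0.115). Eci3, an isomerase for the oxidation of unsaturated fatty acids, was among the 15 largest falls (-1.64 (SE 0.34, adjusted p = 0.00595)). Of 15 apolipoprotein and lipoprotein assembly genes, Apoa4 and Apoc2 (0.60), an activator of Lpl, rose, and Apom (-0.71), Apoh (-0.64) and Apof (-0.31) fell. The Apoh probe was 0.41 brighter on chip B, so as measured its difference was -0.23, which did not pass. The Apof call was lost without chow mice 1, 2, 3 and 4, NMN mice 1 and 3 and HFD mice 1, 2 and 3 (adjusted p up to 0.131).

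**Figure D2:**
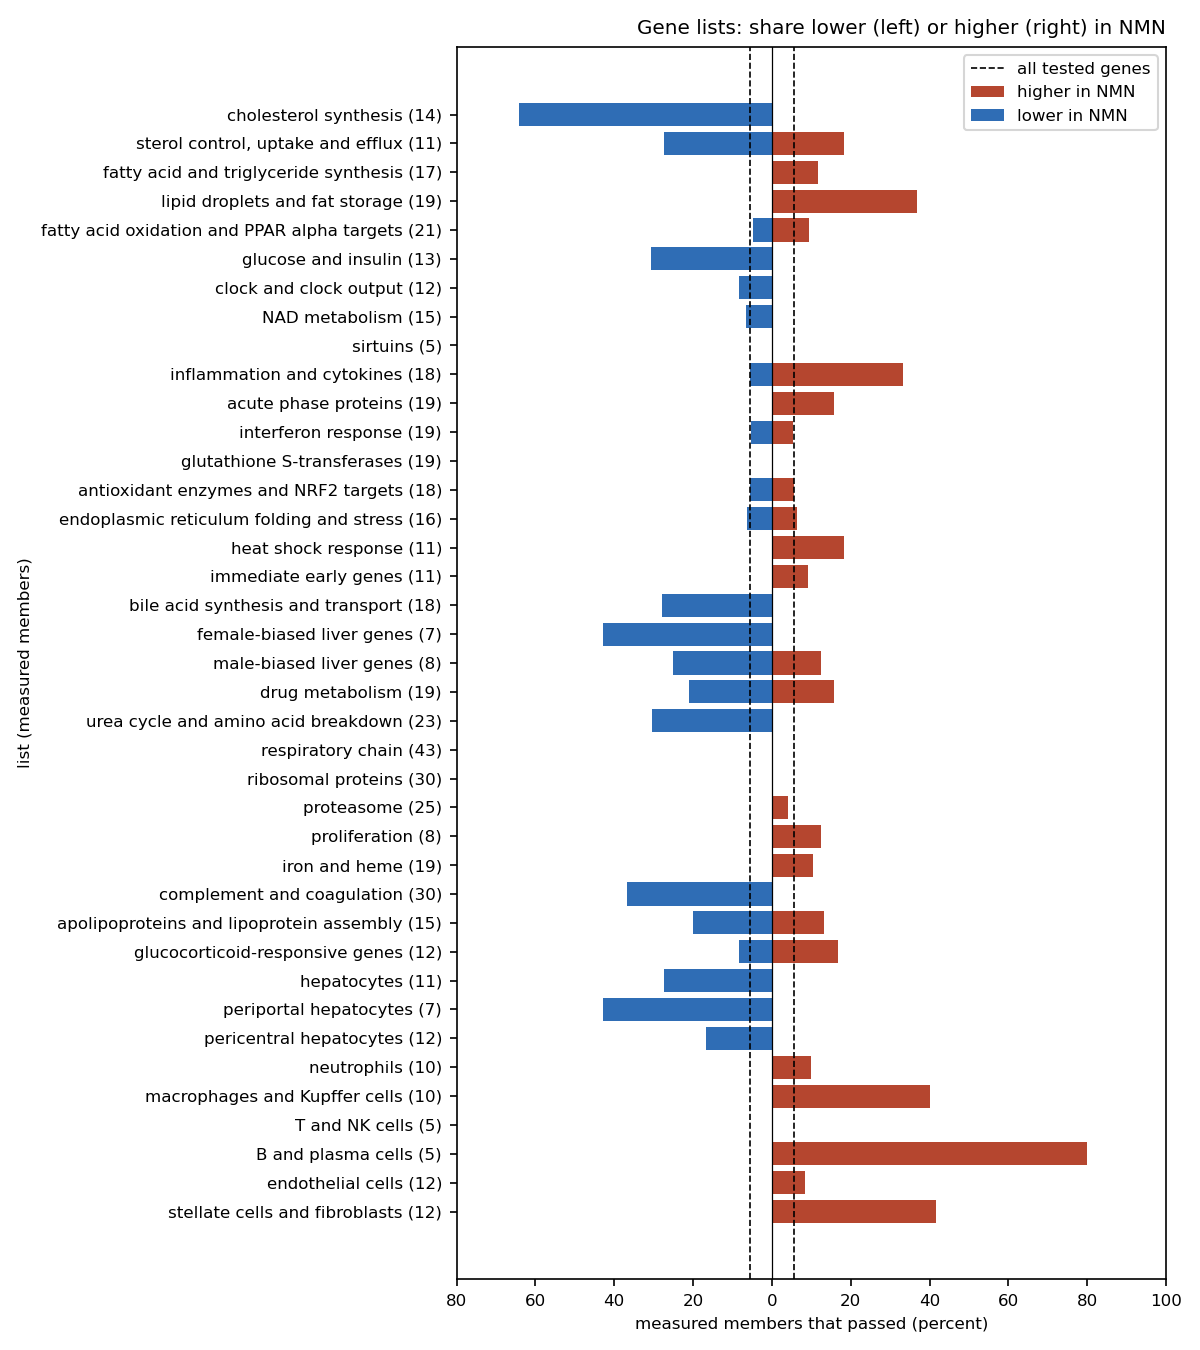
Share of the measured members of each gene list that were called lower (blue, to the left) or higher (red, to the right) in NMN than in chow livers, in percent of the members, whose number stands in brackets. Dashed lines mark the shares over all 6559 genes, 5.63% lower and 5.66% higher, and lists with fewer than 5 measured members are not drawn. Cholesterol synthesis reaches furthest to the left (9 of 14), and the list labelled B and plasma cells furthest to the right (4 of 5, all genes of antigen presentation).

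Genes of glucose control and insulin signalling that changed were lower in NMN livers. Of 13 measured genes, 4 fell and 0 rose, against 5.63% of all genes that fell, with a median of -0.25. Irs2, the adaptor that passes on the insulin signal in liver, read 8.01, 7.96, 7.67 and 8.01 in chow mice 1 to 4 and 6.37, 6.98, 6.75 and 7.24 in NMN mice 1 to 4. All NMN livers were below all chow livers, with a difference of -1.08 (SE 0.17, adjusted p = 0.00125). The HFD mice stood near chow at 7.94, 7.89, 7.47 and 7.64, so that HFD minus chow was -0.18 (adjusted p = 0.53) and NMN minus HFD -0.90 (adjusted p = 0.0692). Neither of these passed, while their sum did. Pck1, the enzyme that starts gluconeogenesis from oxaloacetate, read 6.07, 6.12, 5.71 and 6.24 in the chow livers against 5.36, 4.99, 4.48 and 5.14 in the NMN livers (-1.04 (SE 0.24, adjusted p = 0.0103)), and its probe was 0.50 brighter on chip B, so without the correction the difference was -0.54. Igf1, the growth factor the liver secretes under growth hormone, differed by -0.71 (SE 0.12, adjusted p = 0.0018). Its diet part was -0.42 and its NMN part -0.29. Ppargc1a, a coactivator of gluconeogenic and mitochondrial genes, was -0.49 with overlapping groups, and its call was lost without chow mice 1, 2 and 4, NMN mice 1, 3 and 4 and HFD mice 1, 2, 3 and 4 (adjusted p up to 0.157). G6pc, the last enzyme of glucose release, was at -0.73 and did not pass.

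Genes of NAD metabolism differed little, and the share that fell was near the 5.63% of all genes. Of 15 measured genes 1 passed, Aox3, an aldehyde oxidase, with 10.84, 10.79, 10.53 and 10.99 in the chow livers against 10.08, 10.40, 10.03 and 10.08 in the NMN livers. NMN mouse 2 was the highest of its group and still below the chow mice (-0.64 (SE 0.14, adjusted p = 0.00879)), and the HFD mice were at 10.37, 10.06, 9.81 and 10.27. Nnmt, which methylates nicotinamide, read 9.18, 8.97, 9.83 and 9.94 in the chow livers against 8.94, 9.06, 8.16 and 9.21 in the NMN livers with overlapping groups, and its difference of -0.63 did not pass (adjusted p = 0.11). The enzymes around NMN and the vitamin precursors of NAD lay close to 0, Nmnat1 at 0.051, Nmrk1 at -0.097, Naprt at -0.13 and Nadk at -0.022, and Nampt was not detected on 4 arrays and was not tested. The median of the list was -0.097. Of 5 measured sirtuins 0 passed. Sirt1 read 5.62, 6.26, 5.80 and 6.14 in the chow livers against 5.72, 5.97, 5.93 and 6.09 in the NMN livers, with the groups overlapping (-0.026, SE 0.13), and Sirt3, the mitochondrial sirtuin, was at -0.31 (SE 0.14).

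Clock genes showed 1 call of 12, a fall, against 5.63% of all genes that fell. Noct, a rhythmic phosphatase, read 8.77, 8.05, 9.27 and 8.20 in the chow livers against 7.72, 6.39, 6.49 and 7.03 in the NMN livers and differed by -1.66 (SE 0.39, adjusted p = 0.0133), and HFD minus chow was -1.82. Dbp, the most strongly rhythmic clock output gene, spread over 11.337, 8.005, 9.12 and 11.26 in the chow livers and lay at 10.69, 10.998, 10.30 and 10.67 in the NMN livers. The chow mice alone spanned more than 3 log2 units, and the difference of 0.74 did not pass (adjusted p = 0.638). Nr1d1 was at -0.25 and Per1 at -0.14, and neither passed. The sources used here do not give the hour at which each liver was taken.

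The largest fall of a named gene was that of A1bg, which belongs to the genes that differ between the sexes. A1bg, a secreted protein expressed more in female than in male mouse liver, read 9.87, 12.34, 12.77 and 10.51 in chow mice 1 to 4 and 6.89, 6.64, 5.34 and 8.27 in NMN mice 1 to 4. Its groups did not overlap although the chow mice spanned almost 3 log2 units, and the difference was -4.59 (SE 0.67, adjusted p = 9.77e-04). HFD minus chow made up -2.59 of it and NMN minus HFD -1.99 (adjusted p = 0.266). Of 7 measured female-biased genes, 3 fell and 0 rose, against 5.63% of all genes that fell. The others that fell were Slc22a26 (-1.35), an anion transporter, and Cyp2b9 (-0.74). Cux2, a female-biased transcription factor, read 6.997, 6.90, 6.63 and 6.28 in the chow livers against 5.83, 6.35, 5.40 and 7.08 in the NMN livers. NMN mouse 4 lay above all chow mice and the groups overlapped (-0.54, adjusted p = 0.29), while the HFD mice stood lower at 4.85, 4.88, 5.46 and 4.92. Of 8 male-biased genes, 1 rose and 2 fell, where 5.66% of all genes rose and 5.63% fell. Cyp2d9, a male-biased hydroxylase, read 7.82, 7.15, 6.81 and 7.65 in the chow livers against 9.25, 9.63, 9.77 and 8.53 in the NMN livers, with every NMN liver above every chow liver (1.94 (SE 0.30, adjusted p = 0.00125)). Serpina1e, a serine protease inhibitor, fell by 1.73 on the log2 scale (adjusted p = 0.00612) and Mup20, a male urinary protein, by 1.25. The Mup20 difference rests on the chip correction: its probe was 1.25 brighter on chip B in the HFD mice, and as measured the NMN livers averaged the same as the chow livers (-0.0034).

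Drug metabolism genes fell and rose. Of 19 measured genes 4 fell and 3 rose, against 5.63% and 5.66% of all genes. Cyp2b10, the cytochrome induced through the receptor CAR, read 8.79, 9.18, 8.70 and 9.61 in chow mice 1 to 4 and 6.17, 5.65, 4.65 and 6.68 in NMN mice 1 to 4. The lowest chow liver stood 2 log2 units above the highest NMN liver, and the difference was -3.28 (SE 0.41, adjusted p = 4.05e-04). Its diet part was -2.24, and NMN minus HFD was -1.04 with an adjusted p of 0.381. Cyp1a2, a pericentral cytochrome that metabolises caffeine, read 11.35, 10.58, 10.55 and 10.79 in the chow livers against 9.10, 8.52, 8.20 and 9.32 in the NMN livers. All NMN livers were lower by at least 1 log2 unit (-2.04 (SE 0.23, adjusted p = 2.12e-04)), and so were all HFD mice (8.75, 8.73, 8.98 and 9.11). Cyp2f2 (-0.66), a periportal cytochrome, and Sult1a1 (-0.44), a phenol sulfotransferase, fell as well. The Cyp2f2 call was lost without chow mice 2 and 4 and NMN mice 2 and 3 (adjusted p up to 0.0698), and that of Sult1a1 without NMN mouse 3 (0.0581). Fmo5 (0.83), a flavin monooxygenase, Cyp3a11 (0.66), the main cytochrome of the PXR response, and Ephx1 (0.62), an epoxide hydrolase, rose. Ephx1 stood at 0.097 for HFD minus chow and 0.52 for NMN minus HFD. Of 19 glutathione S-transferases 0 passed, and Gsta1 spread over 8.65, 6.58, 9.76 and 7.29 in the NMN livers (1.19, adjusted p = 0.169).

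Bile acid genes that changed were lower, set against 5.63% of all genes that fell. Of 18 measured genes, 5 fell and 0 rose: Slco1a4 (-1.16), an uptake carrier, Cyp7b1 (-0.67), which hydroxylates oxysterols, Abcb11 (-0.66), the bile salt export pump, Slc10a1 (-0.60), the sodium-dependent uptake carrier, and Nr5a2 (-0.58), a nuclear receptor. Nr5a2 did not pass without chow mice 2 and 4, NMN mice 1 and 3 and HFD mice 2, 3 and 4 (adjusted p up to 0.114). Cyp7a1, the rate-limiting enzyme of bile acid synthesis, read 11.29, 10.07, 11.09 and 9.15 in the chow livers against 10.58, 10.99, 10.04 and 11.62 in the NMN livers. Chow mice alone spanned more than 2 log2 units and the groups overlapped (0.40, adjusted p = 0.641).

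**Figure D3:**
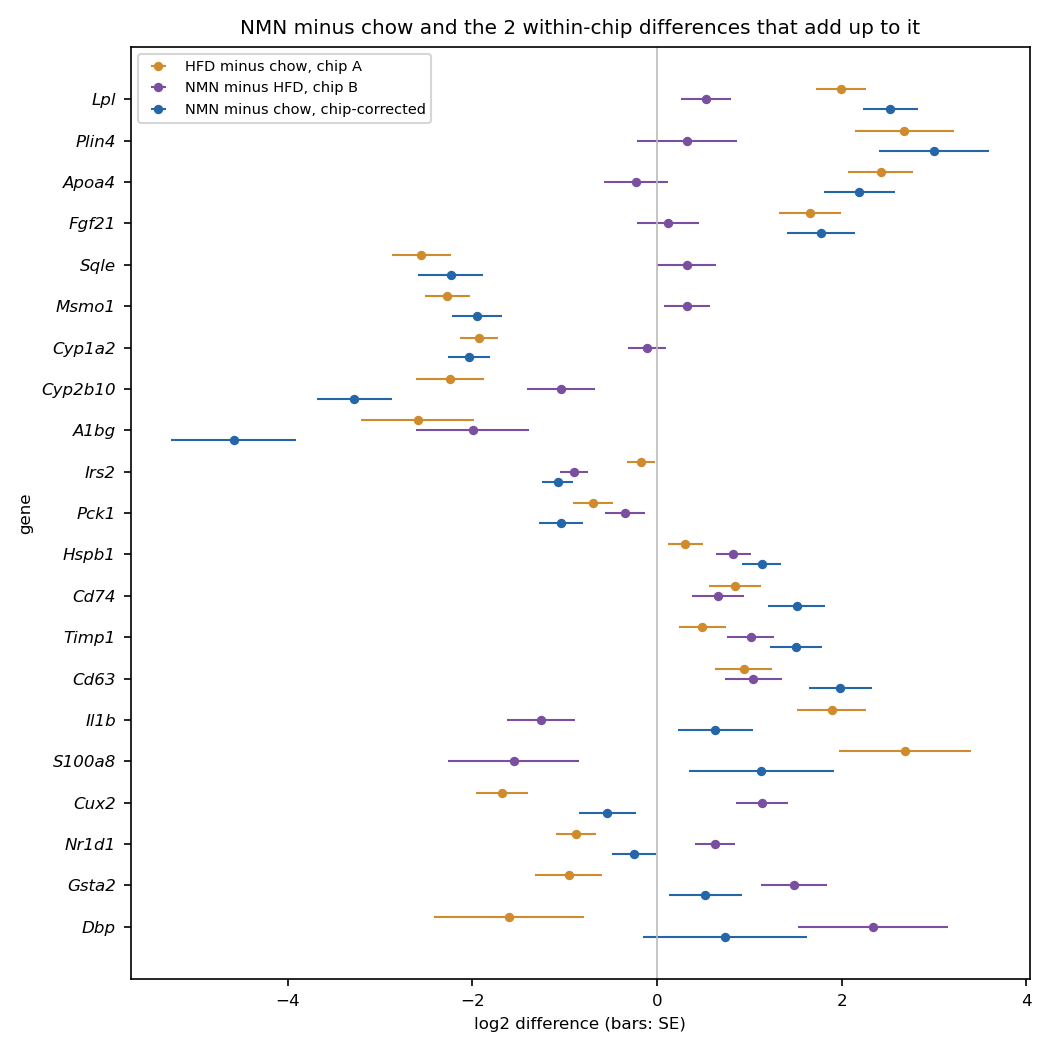
For 21 genes named in the text, the chip-corrected difference of NMN minus chow (blue) beside HFD minus chow on chip A (orange) and NMN minus HFD on chip B (purple), in log2 units with bars of 1 SE. The orange and purple values sum to the blue one. For Sqle the whole fall lies in the orange value. Where both values share a sign, the purple one is the larger for Irs2, Timp1, Hspb1 and, by little, Cd63. It passed for none of these genes. For Il1b, S100a8, Dbp, Cux2, Nr1d1 and Gsta2 the orange and purple values have opposite signs. They also do for Apoa4, Sqle and Msmo1, where the purple value is the smaller. The same HFD mice enter both values, with opposite signs.

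Genes of amino acid breakdown, complement and clotting, made mainly in hepatocytes, were lower in NMN livers where they passed the test, and most did not pass. Of 23 measured genes of the urea cycle and amino acid breakdown, 7 fell and 0 rose, against 5.63% of all genes that fell. The median was -0.37. Agxt, which detoxifies glyoxylate, read 10.70, 10.85, 11.09 and 10.82 in chow mice 1 to 4 and 9.47, 9.59, 8.75 and 9.77 in NMN mice 1 to 4. Each NMN liver was about 1 log2 unit or more below the chow livers (-1.47 (SE 0.19, adjusted p = 4.38e-04)), and the diet and NMN parts were -0.88 and -0.59. Hal, the histidine ammonia-lyase, read 10.85, 11.22, 11.05 and 11.07 in the chow livers against 8.71, 10.44, 9.46 and 10.63 in the NMN livers. NMN mouse 1 was more than 2 log2 units below the chow mice and NMN mouse 4 was near the lowest of them, and the call (-1.24 (SE 0.33, adjusted p = 0.0238)) was lost without chow mice 2 and 4 and NMN mouse 3 (adjusted p up to 0.0766). Got1, an aminotransferase (-0.84), Cbs, which makes cystathionine (-0.74), and Slc25a15, the mitochondrial ornithine carrier (-0.57), fell too. Cps1, the first enzyme of the urea cycle, was at -0.54 and did not pass. Of 30 complement and coagulation genes 11 fell and 0 rose, against the same 5.63% of all genes, with a median of -0.33. Mbl2, a lectin that starts complement, read 10.97, 11.16, 11.29 and 10.95 in the chow livers against 10.53, 10.32, 10.11 and 10.44 in the NMN livers, without overlap (-0.74 (SE 0.15, adjusted p = 0.00542)). F7, clotting factor VII, differed by -0.73, F5, clotting factor V, by -0.72, Masp1, a complement protease, by -0.66 and Klkb1, prekallikrein, by -0.65. With no block for the mouse, 1 gene passed in each of these lists, and with 1 mouse left out 4 to 8 and 6 to 13.

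Hepatocyte markers that passed were lower. Of 11 measured markers, 3 fell and 0 rose, against 5.63% of all genes that fell, with a median of -0.18. The 3 were Asgr2 (-0.64), a receptor for desialylated glycoproteins, Alb (-0.63) and Ahsg (-0.29). In 6 of the 11 every NMN liver lay below every chow liver and in 1 above, as in 10.8% and 10.7% of all genes. The list mean per mouse, relative to chow, was -0.30, -0.19, -0.41 and -0.17 in the NMN livers. In the chow livers it was 0.021, -0.034, -0.024 and 0.037, and in the HFD mice -0.18, -0.28, -0.17 and -0.19. The Alb probe was 0.61 brighter on chip B, so as measured its difference was -0.018, and the Ahsg call was lost without chow mice 2 and 4 and NMN mouse 3 (adjusted p up to 0.0854). Ahsg ranked among the brightest probes of every chow array, where quantile normalisation gives equal ranks an equal level, and 3 chow mice shared 1 level. Of 7 periportal genes 3 fell, and in the pericentral list of 12 the falls were Cyp1a2 and Gulo (-0.45), an oxidase. The Gulo call was lost without chow mouse 1 and NMN mice 1 and 3 (adjusted p up to 0.0641). Of 3 measured red cell genes, 1 measured adipocyte gene and 2 measured genes of acinar pancreas, 1 passed, Cela1 (-0.43), an elastase, and it was lost without chow mice 2, 3 and 4, NMN mice 1 and 2 and HFD mouse 3 (adjusted p up to 0.0791). The adipocyte genes Adipoq, Fabp4 and Plin1 were detected on 0 arrays. In bulk liver RNA, fewer cells of a type and less RNA per cell cannot be told apart.

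Some macrophage markers rose in NMN livers. Of 10 measured markers 4 rose, 6 did not pass and 0 fell, against 5.66% of all genes that rose. The median was 1.02. With 1 mouse left out 1 to 6 rose, and 0 passed with no block for the mouse. Lyz2, the lysozyme of myeloid cells, read 8.28, 7.90, 8.85 and 7.76 in chow mice 1 to 4 and 11.18, 9.55, 10.67 and 9.17 in NMN mice 1 to 4. NMN mice 1 and 3 were the highest, and the lowest NMN liver lay just above the highest chow liver (1.94 (SE 0.44, adjusted p = 0.0105)). The complement genes of macrophages C1qc (1.15) and C1qb (1.12) and the Kupffer cell receptor Clec4f (0.91) passed with overlapping groups. These calls were lost without most of the mice, and without chow mice 1, 2 and 4, NMN mice 1 and 3 and HFD mice 1, 2, 3 and 4 for C1qc (adjusted p up to 0.133). For C1qb the adjusted p reached 0.117 (lost without chow mice 1, 2 and 4, NMN mice 1 and 3 and HFD mice 1 and 3) and for Clec4f 0.104 (lost without chow mice 1, 2 and 4, NMN mice 1 and 3 and HFD mice 1, 2 and 4). The mean of the list per mouse, relative to chow, was 1.74, 0.56, 0.93 and 0.26 in the NMN livers and 0.083, -0.15, 0.37 and -0.31 in the chow livers. NMN mouse 4 lay within the range of the chow mice. In the HFD mice without NMN the list mean was 0.53, 1.57, 1.17 and 0.46. Lgals3, a galectin of macrophages, was also among the 15 largest rises (1.90 (SE 0.40, adjusted p = 0.00721)).

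Genes of antigen presentation on MHC class II rose together. Cd74, the invariant chain, read 8.06, 7.75, 8.53 and 7.26 in chow mice 1 to 4 and 9.53, 9.07, 10.30 and 8.74 in NMN mice 1 to 4. NMN mouse 3 was the highest, and all NMN livers lay above the chow livers (1.51 (SE 0.31, adjusted p = 0.00595)). H2-Ab1, H2-Eb1 and H2-Aa, the chains of the class II molecule, differed by 1.31, 1.26 and 1.16. NMN mouse 3 was the highest for each of them as well, with H2-Aa levels of 7.14, 6.78, 8.33 and 6.50 in the NMN livers. The H2-Eb1 call was lost without chow mouse 4 (adjusted p = 0.0513) and the H2-Aa call without chow mice 2 and 4 (up to 0.0653), and 0 of the 4 passed with no block for the mouse. The 4 genes stood in a list fixed for B and plasma cells, but of its defining markers Ms4a1 and Jchain were detected on 0 of 16 arrays, Cd79a on 1 and Pou2af1 on 2. Cd79b, detected on 12, was the one other measured member and did not pass. For Cd74 the diet and NMN parts were 0.85 and 0.66, of which neither passed. Among 5 measured T and NK cell markers 0 passed.

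The promoters of H2-Aa and H2-Eb1 are shown because class II genes rose together and are known to share a Y box, the CCAAT element of their common promoter module. CTGATTGG, the Y box core, was searched on both strands and found in both, the only class II genes of the list with a promoter in the RefSeq table, and in 4.10% of all 32851 windows. It contains ATTGG. Capitals mark it, and the windows run from 250 bases before to 50 after the gene start at chr17:34287774-34288073, minus strand and chr17:34305617-34305916, plus strand (GRCm38.p6).
H2-Aa: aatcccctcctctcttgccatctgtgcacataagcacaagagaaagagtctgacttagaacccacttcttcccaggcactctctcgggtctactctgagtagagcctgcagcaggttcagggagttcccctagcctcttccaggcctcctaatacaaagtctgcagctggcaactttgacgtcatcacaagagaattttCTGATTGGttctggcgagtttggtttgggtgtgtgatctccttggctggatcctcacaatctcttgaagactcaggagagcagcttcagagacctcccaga
H2-Eb1: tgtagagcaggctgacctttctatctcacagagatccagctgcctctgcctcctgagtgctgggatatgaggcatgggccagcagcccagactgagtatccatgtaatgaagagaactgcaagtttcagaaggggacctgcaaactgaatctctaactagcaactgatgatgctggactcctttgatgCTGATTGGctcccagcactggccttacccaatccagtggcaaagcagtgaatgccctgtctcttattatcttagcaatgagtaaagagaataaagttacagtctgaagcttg

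Some extracellular matrix genes rose. Of 12 measured genes of stellate cells and fibroblasts, 5 rose, 7 did not pass and 0 fell, against 5.66% of all genes that rose. The median was 0.51. Timp1, an inhibitor of matrix proteases, was detected in 0 of 4 chow and 4 of 4 NMN livers, at NMN levels of 5.80, 5.59, 6.72 and 5.29. It was at least 2.02-fold higher in NMN than in chow livers (adjusted p = 0.0038), and NMN mouse 3 was the highest. Timp1 differed by 0.49 for HFD minus chow and by 1.01 for NMN minus HFD, of which neither passed. Col4a1 (0.92), a basement membrane collagen, Col6a1 (0.82), a microfibril collagen, Dcn (0.78), a proteoglycan, and Sparc (0.54), a matrix glycoprotein, rose too. The Sparc call was lost without chow mice 1, 2 and 4, NMN mice 1 and 3 and HFD mice 2 and 4 (adjusted p up to 0.132), and 0 of the 5 passed with no block for the mouse. Of the defining collagens of these cells, Col1a2 and Col3a1 were detected on 0 arrays and Col1a1 on 5. Among 12 endothelial markers 1 passed, Lyve1 (0.60), a receptor of sinusoidal cells, and that call was lost without chow mice 1 and 4, NMN mice 1 and 2 and HFD mouse 4 (adjusted p up to 0.0961).

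**Figure D4:**
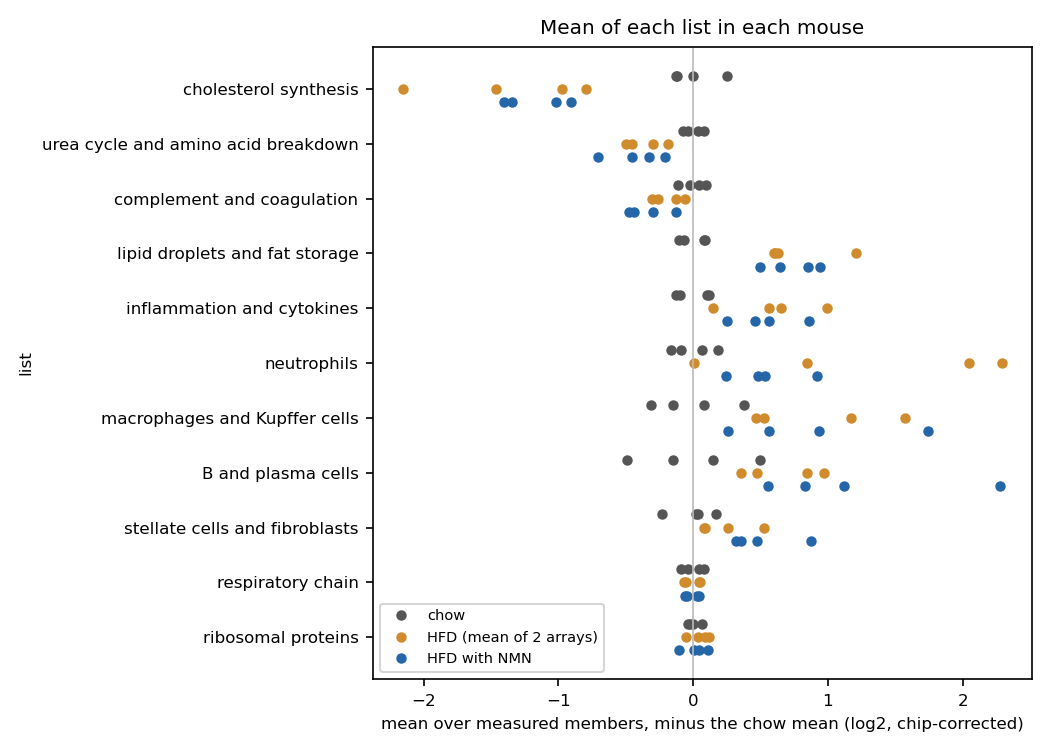
Mean log2 level over the measured members of 11 gene lists in each mouse, relative to the mean of the chow mice, for chow (grey), HFD (orange, mean of both arrays) and NMN (blue) livers. The cholesterol means of the NMN mice (-1.40 to -0.90) lie apart from those of the chow mice. The respiratory chain and ribosomal means of all groups lie within about 0.1 of 0. The neutrophil means of HFD mice 2 and 3 (2.29 and 2.05) lie above all NMN mice. That list holds Mpo, Ngp, Camp and Retnlg, which passed the detection filter only through HFD arrays, so its means rest in part on members chosen through that group.

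Some inflammatory genes rose. Of 18 measured genes 6 rose and 1 fell, where 5.66% of all genes rose and 5.63% fell. The median was 0.54. Tlr2, a receptor for bacterial lipoproteins, read 5.83, 5.70, 5.74 and 5.36 in the chow livers against 6.83, 6.88, 7.31 and 6.35 in the NMN livers without overlap (1.18 (SE 0.24, adjusted p = 0.00608)). Cd14, the coreceptor for endotoxin, read 5.54, 5.27, 5.31 and 5.43 in the chow livers against 7.31, 6.16, 6.99 and 5.84 in the NMN livers (1.19 (SE 0.29, adjusted p = 0.0156)). NMN mice 1 and 3 were the highest for it, and the call was lost without NMN mouse 3 (adjusted p = 0.0559). Ccl4, a chemokine, differed by 1.62, Icam1 by 0.67 and Vcam1 by 0.72, both adhesion molecules, and Il1a by 0.71. Il6ra, the receptor for interleukin 6, fell by 0.53. The calls of Ccl4 (without chow mice 2 and 4, NMN mice 1 and 3 and HFD mouse 3) and Icam1 (without chow mice 2 and 4, NMN mice 1, 2 and 3 and HFD mouse 3) were lost, with adjusted p up to 0.0997 and 0.0995. The calls of Vcam1 (without chow mice 1 and 4 and NMN mouse 3), Il1a (without chow mouse 4 and NMN mouse 1) and Il6ra (without chow mouse 4 and NMN mouse 3) were lost too, with adjusted p up to 0.089, 0.0529 and 0.0683. None of the 7 passed with no block for the mouse, and with 1 mouse left out 2 to 8 genes rose. Il1b, a cytokine of myeloid cells, read 5.68, 5.65, 6.07 and 5.01 in the chow livers against 6.52, 5.86, 6.50 and 6.06 in the NMN livers, with overlapping groups (0.63, adjusted p = 0.347), and 6.77, 8.70, 7.94 and 6.58 in the HFD mice. HFD minus chow was 1.89 for it and NMN minus HFD -1.26.

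Neutrophil markers gave 1 call between NMN and chow livers, and some of them could not give one. Of 10 measured markers 1 passed, Lcn2, a protein also made by hepatocytes in the acute phase, against 5.66% of all genes that rose. Mpo, Ngp, Camp and Retnlg were detected in 0 chow and 0 NMN livers. They passed the filter only through HFD arrays and could not separate NMN from chow livers. Elane was detected in 0 chow livers and 1 NMN liver. S100a8 read 5.12, 5.67, 6.47 and 5.10 in the chow livers against 7.54, 6.55, 6.53 and 6.26 in the NMN livers. All but 1 chow liver lay below the NMN livers, chow mouse 3 overlapped them, and the difference of 1.13 did not pass (adjusted p = 0.385). The HFD mice spread over 7.23, 10.12, 9.90 and 5.84, with HFD mice 2 and 3 far above the rest. Lcn2 read 7.32, 7.25, 7.74 and 9.74 in the chow livers against 10.88, 11.74, 11.31 and 9.60 in the NMN livers, where chow mouse 4 lay inside the NMN range (2.87 (SE 0.89, adjusted p = 0.047)). Its call was lost without chow mice 1, 2 and 3, NMN mice 1, 2 and 3 and HFD mice 2 and 3 (adjusted p up to 0.118). Of 19 acute phase genes 3 rose, Lcn2, Hp (0.78), which binds free haemoglobin, and Hpx (0.31), which binds haem. The Hpx call was lost without chow mice 1 and 2, NMN mice 1 and 3 and HFD mice 1, 2 and 4 (adjusted p up to 0.0901). Among 19 interferon genes Oas1g rose (0.54; lost without chow mice 1, 2 and 4, NMN mice 1 and 3 and HFD mice 1 and 2, adjusted p up to 0.12). Mx2 was not detected in any NMN liver and was at least 1.37-fold lower there.

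Stress genes gave few calls, set against 5.66% of all genes that rose and 5.63% that fell. Hspb1, a small heat shock protein, read 7.19, 6.78, 7.12 and 6.92 in the chow livers against 8.37, 8.39, 8.26 and 7.52 in the NMN livers. NMN mouse 4 was well below the other NMN mice and above every chow mouse (1.13 (SE 0.21, adjusted p = 0.00369)). HFD minus chow was 0.31 and NMN minus HFD 0.82, and neither passed. Dnajb1, a cochaperone of Hsp70, rose by 0.82 with parts of 0.30 and 0.53, so that 2 of 11 heat shock genes rose. Hmox1, which breaks down haem, rose by 1.09 and Prdx4, a peroxiredoxin of the secretory pathway, fell by 0.69, the 2 calls among 18 antioxidant genes. Ddit3 (0.69) rose and Hyou1 (-0.50) fell among 16 genes of endoplasmic reticulum folding and stress. Both were lost with single mice left out, Ddit3 without chow mice 2 and 4 and NMN mice 1 and 3 (adjusted p up to 0.089) and Hyou1 without chow mice 3 and 4, NMN mice 1 and 4 and HFD mouse 4 (up to 0.0748). Jun (0.72) was the 1 call among 11 immediate early genes. Cdkn1a, the cell cycle inhibitor p21, rose by 1.34 with overlapping groups, the 1 call among 8 proliferation genes. It was lost without chow mice 1 and 4, NMN mice 1 and 3 and HFD mice 1 and 3 (adjusted p up to 0.122). Some of the genes above also stand in other lists: of 19 iron and haem genes 2 rose, Hmox1 and Hpx, and of 12 glucocorticoid-responsive genes 2 rose, Lcn2 and Cdkn1a, and 1 fell, Sult1a1.

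Mitochondrial, ribosomal and proteasome genes stayed near 0. Of 43 respiratory chain genes 0 passed, with a median of 0.00, and the smallest p belonged to Ndufa8, a complex I subunit (0.34, adjusted p = 0.0512). Of 30 ribosomal protein genes 0 passed, with Rps24 at -0.24 and Rps12 at 0.20. Of 25 proteasome genes 1 rose, Psmb7 (0.38), where 5.66% of all genes rose. Its call was lost when the chip difference was not removed.

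Among the 15 largest rises outside these lists, Ly6d stood first. Ly6d, a surface protein of the Ly6 family, read 4.40, 4.38, 4.67 and 4.30 in chow mice 1 to 4 and 8.30, 7.09, 9.81 and 7.28 in NMN mice 1 to 4. It was detected in 0 of 4 chow and 4 of 4 NMN livers, and was at least 10.4-fold higher in the latter (adjusted p = 0.00228). HFD mice had levels of 9.19, 7.26, 6.19 and 6.46. Wfdc2, a secreted protease inhibitor, read 8.81, 8.56, 8.80 and 8.86 in the chow livers against 11.09, 11.21, 11.28 and 10.224 in the NMN livers, with a gap of more than 1 log2 unit (2.20 (SE 0.21, adjusted p = 9.70e-05)). Serpina12, the adipokine vaspin, read 7.08, 8.08, 7.04 and 6.61 in the chow livers against 8.98, 9.68, 9.997 and 9.05 in the NMN livers (2.23 (SE 0.31, adjusted p = 6.87e-04)). Cd63, a tetraspanin of lysosomes and exosomes, read 6.59, 6.88, 6.74 and 6.43 in the chow livers against 8.78, 8.45, 9.46 and 7.89 in the NMN livers. NMN mouse 3 was the highest (1.99 (SE 0.34, adjusted p = 0.00214)), and the diet and NMN parts were alike, 0.94 and 1.04, of which neither passed. Ubd, a ubiquitin-like protein induced by cytokines, followed the same order, with NMN mouse 3 at the top (1.98 (SE 0.49, adjusted p = 0.0161)). Esm1, an endothelial proteoglycan, differed by 2.37, Gpc1, a glypican, by 2.11, Anxa2, an annexin, by 1.99 and Chil1, a chitinase-like lectin, by 1.87. Gpc1 was lower in NMN than in HFD mice without passing (-0.68, adjusted p = 0.539).

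For some of the largest falls, HFD minus chow and NMN minus HFD were both negative. Dct, dopachrome tautomerase, read 7.94, 8.32, 8.19 and 7.44 in chow mice 1 to 4 and 5.07, 6.12, 5.37 and 6.15 in NMN mice 1 to 4. The groups were more than 1 log2 unit apart (-2.29 (SE 0.27, adjusted p = 2.70e-04)), with HFD minus chow at -1.06 and NMN minus HFD at -1.23 (adjusted p = 0.0744). Slco2a1, a prostaglandin transporter, fell by 1.57 on the log2 scale (adjusted p = 1.44e-04), Cyp4f14, an omega-hydroxylase, by 1.81, Etnppl, which breaks down phosphoethanolamine, by 1.75 and Ces3b, a carboxylesterase, by 1.56. For Ces3b the parts were -0.74 and -0.82, and for Slco2a1 -1.28 and -0.28. NMN minus HFD did not pass for any of these genes.

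**Figure D5:**
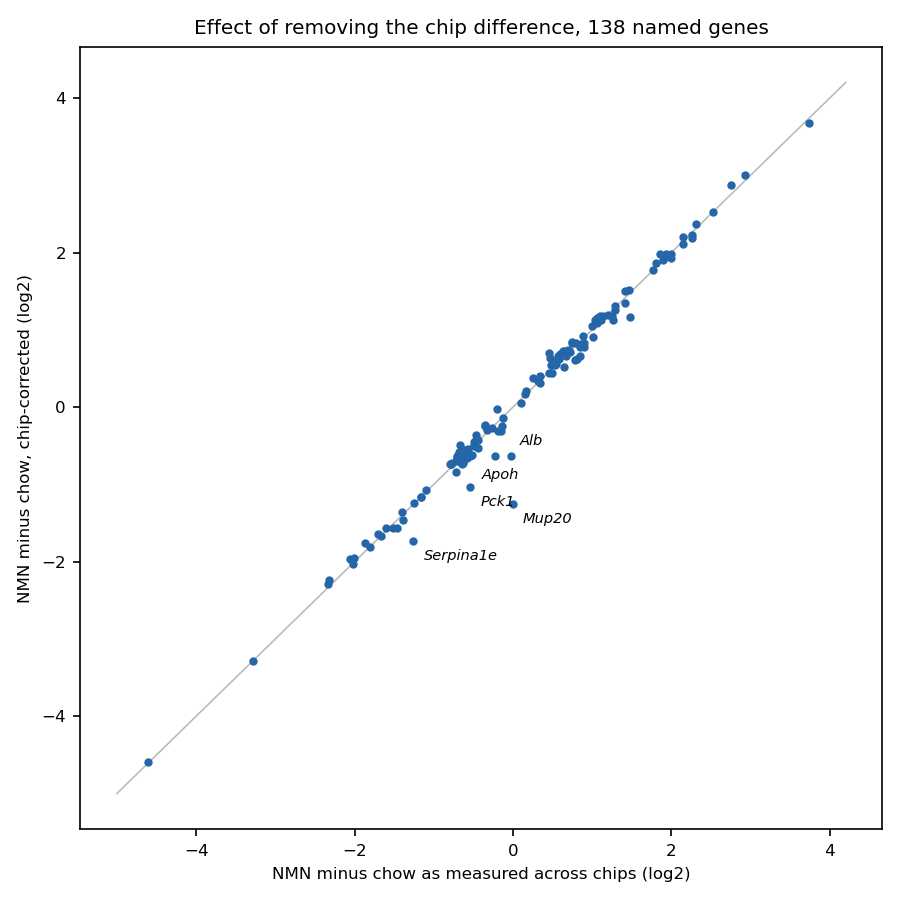
Difference of NMN minus chow for 138 named genes as measured across the chips (horizontal) and after the chip difference of the HFD mice was removed (vertical), in log2 units, with the line of equality. Most genes lie on the line, while Mup20 moves from -0.0034 to -1.25 and Alb from -0.018 to -0.63.

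The firmest calls were judged by how they held across settings. Of 138 named genes 113 passed, 56 higher and 57 lower, 83 of these also passed with each of the 12 mice left out in turn, and 26 with no block for the mouse. Over the 23 alternatives and leave-outs, 24 passed in every one that held their probe. The alternative limited to probes detected on all 16 arrays did not hold all 138 named genes. The higher ones were Lpl, Serpina12, Wfdc2, Anxa2, Cyp2d9, Insig2 and Apoc2. The lower ones were A1bg, Cyp2b10, Dct, Cyp1a2, Msmo1, Slco2a1, Tm7sf2, Ces3b, Hsd17b7, Srebf2, Irs2, Igf1, Prdx4, Cyp7b1, Agxt, Masp1 and Apom. With no chip difference removed, 126 of the 1157 calls were lost and 549 were gained. Of the 1157 called probes, 65 also differed between the chips in the HFD mice, where 4.88% of all probes did, and 3 of them by more than 0.5. The correction assumes that the chip shifted chow and NMN livers as it shifted HFD livers, which was not tested.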

How the data were processed

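Liver RNA was measured on 16 single-colour arrays. Per the file headers, the deposited signal table pairs an intensity with a detection p-value for each probe of an array. The authors had scaled the intensities so that every array has a mean of 202.13, and no background was subtracted. A second deposited table holds a z score per gene and array, used for 1 alternative. No source used here names the reading software.

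Intensities were background-corrected and quantile normalised over all arrays by neqc (limma 3.58.1, R 4.3.3, offset 16). Probes with a detection p under 0.01 on at least 4 of 16 arrays were tested (10550). Genes and chromosomes were named from the platform's probe annotation, 3914 tested probes had no symbol, and the probe with the highest mean stood for a gene. One limma fit held the 4 groups, with mouse as a random block (consensus correlation 0.788, 1 value for all probes), empirical Bayes moderation and Benjamini-Hochberg adjustment over all tested probes at 0.05. The contrast was NMN minus HFD on chip B plus HFD minus chow on chip A, two-sided. HFD arrays carry matching animal numbers on chips A and B in the header of the signal table, and same-numbered arrays deviated together (r = 0.734 to 0.883), which joined them as 1 mouse. Same-numbered chow and NMN arrays did not (r from 0.027 to 0.236). Nothing else in the labels says how animals were housed or processed, so the p-values measure the spread between these mice. For a gene undetected on every array of 1 group, a bound was computed in place of a fold, with each such array set at no less than its lowest detected probe.

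The comparison, the 44 gene lists (862 genes, 101 without a named probe), the tests and the genes given by name were chosen with earlier results of these data known. Named were the 15 largest called differences per direction with groups that did not overlap, up to 5 called members with the smallest p per list, 2 where none passed, and a set of genes listed by name. Members named beside these complete the counts of their list and were chosen after their values were seen. The fit was tested on simulated data, where with the block it recovered more of the changed probes and its share of false calls was above the threshold set, while without the block that share was below it. Alternatives were no block, no chip correction, another normalisation, the z scores, other filters, array weights and each mouse left out.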

Additional observations from a re-analysis of the deposited data

Results flagged for a closer look

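Among 276 groups of 4 mice (138 named genes, chow and NMN each), 17 held 1 mouse that stood apart from the other 3 by more than Dixon's critical ratio, and chance marks about 1 in 20 groups. Values are log2 levels, beside the range of the other 3 mice of the group. Chow mouse 3 stood apart for 5 genes: lower for Irs2 at 7.67 (others 7.96 to 8.01), for Gsta4 at 8.85 (9.22 to 9.29), for Per1 at 5.69 (6.18 to 6.26) and for Ahsg at 14.17 (all 14.21, an equal rank among the brightest probes), and higher for Oas1g at 6.00 (5.55 to 5.62). Chow mouse 4 was lower for 4 genes, Eci3 at 7.31 (7.89 to 7.92), Scd1 at 12.03 (12.41 to 12.44), Ephx1 at 11.16 (11.35 to 11.37) and Rps24 at 5.24 (5.41 to 5.43). Chow mouse 1 was higher for Mogat1 at 4.56 (4.26 to 4.30), where no chow liver was above background, and lower for Cbs at 9.55 (10.02 to 10.05).

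In the NMN group, mouse 3 stood apart for 3 genes, lower for Il6ra at 4.60 (4.97 to 5.01) and Cbs at 8.82 (9.25 to 9.33) and higher for Sparc at 7.24 (6.68 to 6.75). NMN mouse 4 was lower for Esm1 at 6.78 (7.35 to 7.46) and Hspb1 at 7.52 (8.26 to 8.39). NMN mouse 2 was higher for Aox3 at 10.40 (10.03 to 10.08).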

How the results depend on the processing

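Of the 113 called genes named, 0 changed sign in any alternative run, against 6 of the 25 named genes that did not pass. The called genes were chosen for differences large beside their SE, and the runs share arrays, so a kept sign was likely from the start. The medians of 9 of 42 gene lists changed sign, all of them below 0.2 in size: that of fatty acid oxidation, at 0.059, fell to -0.0058, that of acute phase proteins, at 0.045, to -0.023 and that of interferon genes, at 0.11, to -0.022. The counts of probes depended most on the block: with no replicate block 48 were higher and 90 lower in NMN livers (against 561 and 596), where the arrays of an HFD mouse count as independent. With no filter on detection 156 and 270 of 25697 probes passed, with the deposited z scores 362 and 353 of 7081, and with 1 named probe per gene 369 were lower. Leaving out 1 mouse gave 245 to 666 higher and 303 to 697 lower. Other alternatives stayed within 1.5 times: 750 and 830 with no chip difference removed, 782 and 819 on the 8 corrected arrays alone, 556 and 610 with quantile-normalised log2 signal, 569 and 597 with neqc within each chip, 465 and 554 for probes detected on all 16 arrays, and 613 and 657 with array weights. Without HFD mice 2 and 3, whose neutrophil genes stood high, 450 and 469 passed. For NMN against HFD, 0 probes passed with no replicate block and 0 with the 8 arrays of the chip alone, against 1. For the chips, 5 passed with no replicate block and 19 in the paired fit of the HFD mice alone, against 515, and for HFD against chow 665 and 591 against 767 with no block and with chip A alone. Replicate numbers pair the HFD arrays but not chow with NMN mice, so no other pairing was fitted. Of the 138 named genes, 87 lost their call with no replicate block, 62 with no filter, 12 with the z scores and 7 with no chip difference removed.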
